A study of Mus musculus with 67 samples.

Results

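The liver genes Sult1e1, Cyp17a1, Loxl4, Defb1, Obp2a and Ntrk2 were followed through the day in clock-mutant and wild-type mice. They are 6 of the 45808 gene rows of the table, found by symbol, and were picked because each was far higher than in wild type in a liver knockout of Bmal1, in a liver knockout of both Rev-erb genes, or in both. No numerical threshold went with that choice. The mutant-against-wild-type values below, which made the choice, are therefore a description with no test. The choice did not use time of day or feeding.

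The series is a time course of liver mRNA in 67 libraries from C57BL/6 mice aged 24 weeks. All animals, wild type included, had been on a high-fat diet for 12 weeks, eaten either at restricted times (TRF) or ad libitum (AL), and the sources used here do not give the hours of restricted feeding. Bmal1-liverKO mice (Bmal1LKO; Bmal1 has the symbol Arntl) had 6 TRF and 6 AL libraries, 1 at each of 6 zeitgeber times (ZT, in hours) from ZT4 to ZT24. Rev-erb alpha and beta liver double knockouts (ReverbLDKO) had 8 TRF and 8 AL libraries, 1 at each of 8 times from ZT3 to ZT24. Cry1Cry2 double KO mice (CryDKO), whose deletion is not labelled as limited to the liver, had 8 and 8 at the same times as ReverbLDKO. WT had 11 TRF and 12 AL libraries at the times of Bmal1LKO. The labels name no Cre line, no floxed control and no animal, so p-values measure the spread between libraries, and any difference in husbandry or batch between the lines cannot be told apart from genotype.

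Recovered depth ran from 9.14 to 36.09 M reads per library. The exon sums do not check the deletions, since the deleted exons are not named. Arntl had a median of 3.18 FPKM in libraries labelled Bmal1LKO, against 7.29 in WT. Nr1d1, which encodes REV-ERB alpha, had a median of 31.7 FPKM in libraries labelled ReverbLDKO, against 2.18 in WT, and Nr1d2 17.8 against 8.56. Cry1 had a median of 10.2 FPKM in libraries labelled CryDKO, against 10.6 in WT, and Cry2 2.73 against 3.23. Directions given for these mutants are those of the libraries so labelled. The Bmal1LKO AL library at ZT20 stands apart for these genes. It held 18.7 FPKM of Cyp17a1, where the other 11 of its genotype held 1.65 or less, and it also had the highest Arntl of that genotype, 7.09 FPKM. In 10 libraries pancreas markers summed to more than 10 FPKM, and results that change without them are marked.

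BMAL1 with its partner CLOCK drives transcription of the Rev-erb and Cry genes through E-box elements. REV-ERB alpha and beta repress genes, Bmal1 among them, through the half-site that they share with the ROR activators, and CRY proteins inhibit BMAL1 and CLOCK. Nr1d1 had a median of 0.89 FPKM in Bmal1LKO, against 2.18 in WT. A pair of the genes make steroid enzymes: Sult1e1, the estrogen sulfotransferase, which inactivates estrogens, and Cyp17a1, a cytochrome P450 on the route to androgens and estrogens, best known from the gonads. Of the others, 3 make extracellular proteins: Loxl4, a lysyl oxidase that cross-links collagen and elastin; Defb1, an antimicrobial beta-defensin of epithelia; and Obp2a, an odorant-binding lipocalin. Ntrk2 makes TrkB, the receptor for the neurotrophin BDNF.

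Promoters were available for 4 of the 6 genes, and are shown because the set is high where the E-box activator or the half-site repressor is labelled as deleted. Bases 250 to 51 before the RefSeq start are printed on the gene's strand (RefSeq, GRCm38.p6), at chr5:87591662-87591861 for Sult1e1, chr19:42612857-42613056 for Loxl4, chr2:25699824-25700023 for Obp2a and chr13:58806319-58806518 for Ntrk2. Capitals mark a match to TATAAA on the gene's strand or to AGGTCA, the half-site of REV-ERB and ROR, on either strand.
Sult1e1: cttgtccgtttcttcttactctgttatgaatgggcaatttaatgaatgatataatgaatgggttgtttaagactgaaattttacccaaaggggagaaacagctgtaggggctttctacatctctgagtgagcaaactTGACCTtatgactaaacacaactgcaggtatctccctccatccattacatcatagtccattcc
Loxl4: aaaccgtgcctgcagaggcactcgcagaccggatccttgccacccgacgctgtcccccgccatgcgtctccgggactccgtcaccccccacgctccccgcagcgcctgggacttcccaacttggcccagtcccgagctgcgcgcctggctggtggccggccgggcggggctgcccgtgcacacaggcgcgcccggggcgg
Obp2a: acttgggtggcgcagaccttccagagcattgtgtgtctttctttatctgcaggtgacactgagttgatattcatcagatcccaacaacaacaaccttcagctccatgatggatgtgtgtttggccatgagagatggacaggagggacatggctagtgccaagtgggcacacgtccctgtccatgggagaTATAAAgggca
Ntrk2: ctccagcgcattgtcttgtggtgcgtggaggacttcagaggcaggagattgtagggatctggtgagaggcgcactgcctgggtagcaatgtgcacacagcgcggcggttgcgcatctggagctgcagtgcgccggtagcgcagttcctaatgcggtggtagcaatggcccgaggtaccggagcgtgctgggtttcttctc
In the 250 bases before the RefSeq start, AGGTCA on the opposite strand (read TGACCT here) lay 113 to 108 bases before that of Sult1e1. In Obp2a it lay 17 to 12 bases before the RefSeq start, in the stretch not printed. AGGTCA was present on either strand in 14.0% of 32851 promoter windows of the same length. TATAAA lay 61 to 56 bases before the start of Obp2a and was in 7.59% of windows. The E-boxes CACGTG (6.02% of windows) and CACGTT (3.85%) and the D-box TTATGTAA (0.819%), searched on both strands, matched none of the 4. Loxl4 and Ntrk2 had 27 and 19 CG dinucleotides in the 250 bases, Sult1e1 1 and Obp2a 2, against a median of 6 over all windows. By the GENCODE annotation of GRCm38, Sult1e1 lies at chr5:87575969-87591594 (minus strand), Cyp17a1 at chr19:46667165-46673172 (minus), Loxl4 at chr19:42593982-42612813 (minus), Defb1 at chr8:21776599-21795185 (plus), Obp2a at chr2:25700043-25703326 (plus) and Ntrk2 at chr13:58806569-59133970 (plus). Ntrk2 overlaps 4 other annotated genes, 3 of them on the opposite strand. The strand setting of the counting is not given, so reads of such genes may be among its own. The other 5 overlap none. The GENCODE start of Obp2a lies upstream of its RefSeq start. By GENCODE its AGGTCA match is therefore inside the gene, while its TATAAA match is before it.

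Sult1e1 was far above WT in every Bmal1LKO library. Its FPKM values in Bmal1LKO ran from 38.0 to 188 (median 86.6), in ReverbLDKO from 0.16 to 10.2 (median 1.5), in CryDKO from 0.38 to 42.5 (median 2.74) and in WT from 0.21 to 8.02 (median 1.61). All 12 Bmal1LKO libraries exceeded every WT library, and the median was 53.8-fold higher. The level difference on the log2(FPKM + 1) scale was 4.88 ± 0.33 (SE) in Bmal1LKO, -0.07 ± 0.30 in ReverbLDKO and 0.83 ± 0.30 in CryDKO, each against WT. The ReverbLDKO value lay near 0 and took either sign under other scalings. CryDKO reached 42.5 FPKM at ZT18 under AL, above the lowest Bmal1LKO library, and 6 of its 16 libraries were above all of WT.

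Cyp17a1 was high in ReverbLDKO and low in Bmal1LKO. Its FPKM values in Bmal1LKO ran from 0.32 to 18.7 (median 0.95), in ReverbLDKO from 26.0 to 273 (median 88.2), in CryDKO from 9.65 to 153 (median 17.7) and in WT from 2.92 to 25.0 (median 8.56). All 16 ReverbLDKO libraries exceeded every WT library, while 11 of 12 Bmal1LKO libraries were below all of WT. The exception was the AL library at ZT20. The level difference was 2.80 ± 0.25 on the log2 scale in ReverbLDKO, -2.16 ± 0.27 in Bmal1LKO (-2.42 without that library) and 1.24 ± 0.25 in CryDKO. CryDKO thus lay between ReverbLDKO and WT, with ranges that overlap both.

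Loxl4 was high in both liver knockouts and low in CryDKO. Its FPKM values in Bmal1LKO ran from 5.19 to 16.1 (median 8.99), in ReverbLDKO from 8.41 to 20.8 (median 15.8), in CryDKO from 0.077 to 0.228 (median 0.118) and in WT from 0 to 4.72 (median 0.489). Every library of both liver knockouts exceeded every WT library. CryDKO held 167 recovered reads in 16 libraries, against 1463 in the 23 of WT. The level differences were 2.54 ± 0.11 in Bmal1LKO, 3.19 ± 0.10 in ReverbLDKO and -0.64 ± 0.10 in CryDKO. The pseudocount of 1 FPKM compresses such low values, and with 0.1 FPKM the differences were 3.85, 4.55 and -1.46.

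Defb1 resembled Sult1e1. Its FPKM values in Bmal1LKO ran from 13.4 to 52.8 (median 32.9), in ReverbLDKO from 2.19 to 8.85 (median 4.37), in CryDKO from 0.83 to 10.98 (median 4.86) and in WT from 0 to 11.9 (median 4.65). The 12 Bmal1LKO libraries exceeded every library of the other 3 genotypes, which overlapped among themselves. The level difference was 2.68 ± 0.22 in Bmal1LKO, 0.12 ± 0.20 in ReverbLDKO and 0.30 ± 0.20 in CryDKO.

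Obp2a was high in ReverbLDKO and close to undetected in CryDKO. Its FPKM values in Bmal1LKO ran from 0.48 to 6.46 (median 3.72), in ReverbLDKO from 11.5 to 100.1 (median 39.8), in CryDKO from 0 to 0.56 (median 0) and in WT from 1.27 to 22.9 (median 6.96). In ReverbLDKO 13 of 16 libraries exceeded every WT library. In CryDKO all 16 were below every WT library: 10 were listed at 0, and the 16 together held 13 recovered reads, against 1570 in the 23 WT libraries. The level differences were -0.75 ± 0.24 in Bmal1LKO, 2.48 ± 0.22 in ReverbLDKO and -2.76 ± 0.22 in CryDKO. With a pseudocount of 0.1 FPKM they were -0.93, 2.67 and -5.39, and with voom on recovered reads the CryDKO value was -6.36, so that a value fitted on 13 reads depends on the pseudocount and is no bound.

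Ntrk2 followed the order of Loxl4 with the liver knockouts exchanged. Its FPKM values in Bmal1LKO ran from 2.87 to 9.36 (median 6.11), in ReverbLDKO from 1.21 to 4.78 (median 3.33), in CryDKO from 0 to 0.040 (median 0.018) and in WT from 0.032 to 0.974 (median 0.260). Each library of both liver knockouts was above every WT library, and 15 of 16 CryDKO libraries were below all of WT. CryDKO held 70 recovered reads in all, with 0 to 9 in a library, against 1455 in WT. The level differences were 2.39 ± 0.08, 1.58 ± 0.08 and -0.38 ± 0.08 in Bmal1LKO, ReverbLDKO and CryDKO, and with a pseudocount of 0.1 FPKM they were 3.97, 2.98 and -1.70.

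**Figure D1:**
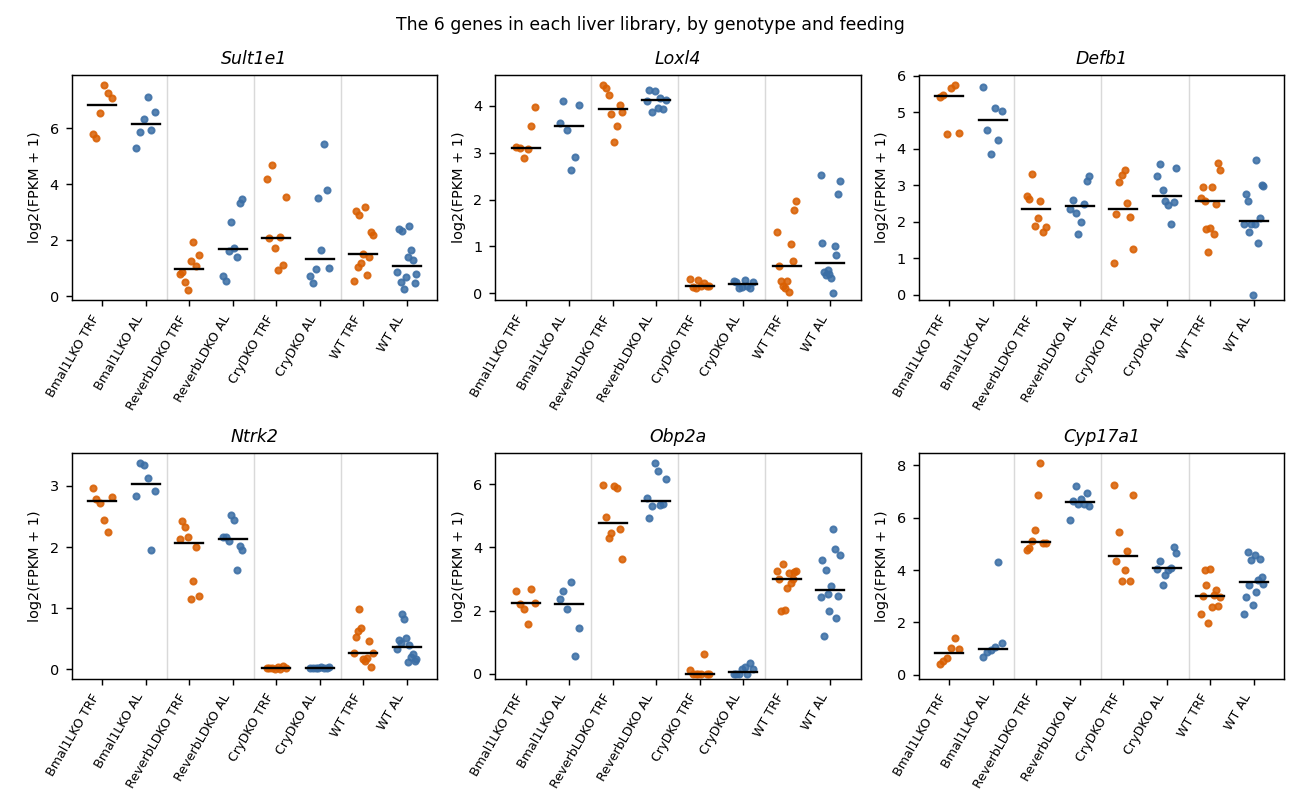
Level of each gene as log2(FPKM + 1) in every library, grouped by genotype and feeding (TRF orange, AL blue), with black lines for group medians. Sult1e1 and Defb1 stand high in Bmal1LKO, Obp2a and Cyp17a1 in ReverbLDKO, Loxl4 and Ntrk2 in both, and Loxl4, Ntrk2 and Obp2a lie lowest in CryDKO.

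Set against all 9955 genes tested, genes with every library of a mutant above every WT library were few. They made up 0.121% (12 genes, 4 of these 6) in Bmal1LKO, 0.10% (10 genes, 3 of these 6) in ReverbLDKO and 0.281% (none of these 6) in CryDKO. In both liver knockouts 3 genes passed, and 2 of them were Loxl4 and Ntrk2. Genes with every library below WT made up 0.0402% in Bmal1LKO, 0.0904% in ReverbLDKO and 0.472% in CryDKO, the last with Obp2a among them. The choice of the genes fixes the counts for the first 2 mutants, and all 3 mutants share the WT libraries, so nothing is read from these shares.

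Of the 6 genes, Loxl4 passed the test for a 24-hour rhythm in WT under both feedings. In WT TRF livers it held 2.45 and 2.94 FPKM at ZT24 and 1.46 and 0.489 at ZT4, against 0.0785 in the single library at ZT12. In WT AL livers it held 3.34 and 4.25 FPKM at ZT24 and 4.72 and 1.11 at ZT4, against 0.416 and 0.327 at ZT12. The libraries at ZT24 were thus several-fold above those at ZT8 to ZT16 under either feeding. The fitted amplitude, from mean to peak, was 0.89 on the log2 scale with a peak at ZT0.15 under TRF (limma, adjusted p = 5.16e-05) and 1.01 with a peak at ZT1.26 under AL (adjusted p = 5.71e-07). Of the 6 genes, 1 was called in each of these groups, where 20% and 29.7% of all genes were called.

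In the mutants the rhythm of Loxl4 did not pass the test as fitted. In Bmal1LKO its amplitude was 0.47 under TRF (adjusted p = 0.459) and 0.65 under AL (adjusted p = 0.286). In ReverbLDKO the TRF libraries ran from 20.8 FPKM at ZT3 to 8.41 at ZT15, with an amplitude of 0.49 (adjusted p = 0.129), and the AL amplitude was 0.06. With library weights the rhythm passed in ReverbLDKO TRF (adjusted p = 0.0106) and Bmal1LKO AL (0.0411), and with only its own group in the fit ReverbLDKO TRF was at 0.0499. In CryDKO both amplitudes were under 0.03 on a scale where the level itself was about 0.19. The lowest mutant libraries were above the WT peak in both liver knockouts. Whether rhythms differ between genotypes was not tested.

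Ntrk2 was highest in WT in the second part of the light phase. In WT TRF livers it held 0.552 and 0.974 FPKM at ZT8 and 0.603 at ZT12, against 0.032 and 0.211 at ZT24. In WT AL livers it held 0.353 and 0.871 at ZT8 and 0.781 and 0.424 at ZT12, against 0.0998 and 0.129 at ZT24. The rhythm did not pass, with an adjusted p of 0.0803 under TRF and 0.0642 under AL. The WT mean of Ntrk2, 0.341 FPKM, is under the mean of 1 FPKM asked of a gene, which it reached through the liver knockouts where it is high. With a pseudocount of 0.1 FPKM or with voom on recovered reads both passed, at adjusted p from 0.00200 to 0.0112. In ReverbLDKO under TRF Ntrk2 passed with a peak at ZT6.97 (amplitude 0.49, adjusted p = 0.0250), ranging from 4.39 FPKM at ZT6 to 1.21 at ZT15. That call, 1 of 6 genes against 3.95% of all genes, was lost with a pseudocount of 0.1 FPKM (adjusted p = 0.243), with voom (0.166), with that group alone in the fit (0.204) and on leaving out the library at ZT6, ZT9, ZT15 or ZT18 (0.0573 to 0.146).

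Defb1 passed in CryDKO under TRF, where 7.23% of all genes did. It held 0.83 FPKM at ZT3 and 1.39 at ZT24, against 8.69 at ZT12 and 9.73 at ZT15 (amplitude 1.18, peak at ZT13.2, adjusted p = 0.0291). The AL libraries of CryDKO were highest at ZT6 and ZT24, with 10.98 and 10.08 FPKM, and did not pass (adjusted p = 1.00). The TRF call was lost on leaving out the library at ZT3, ZT9, ZT12, ZT15 or ZT24 (adjusted p from 0.0520 to 0.178), with a pseudocount of 0.1 FPKM (0.0753), with voom (0.0902) and with that group alone in the fit (0.130). The low Defb1 libraries at ZT3 and ZT24 are also the 2 of CryDKO with the highest Cyp17a1, 153 and 117 FPKM. In WT, Defb1 did not pass under TRF (limma, adjusted p = 0.0935, fitted peak at ZT0.73) or AL (0.186, peak at ZT23.8). Without the pancreas-marked libraries it passed under TRF (adjusted p = 0.00694) and AL (0.0132). It also passed in both after GC and length correction (0.00510 and 0.0213) and with library weights. No gene passed in Bmal1LKO TRF or AL, CryDKO AL or ReverbLDKO AL, where 0.512%, 0.0301%, 0.0502% and 0.0301% of all genes did.

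**Figure D2:**
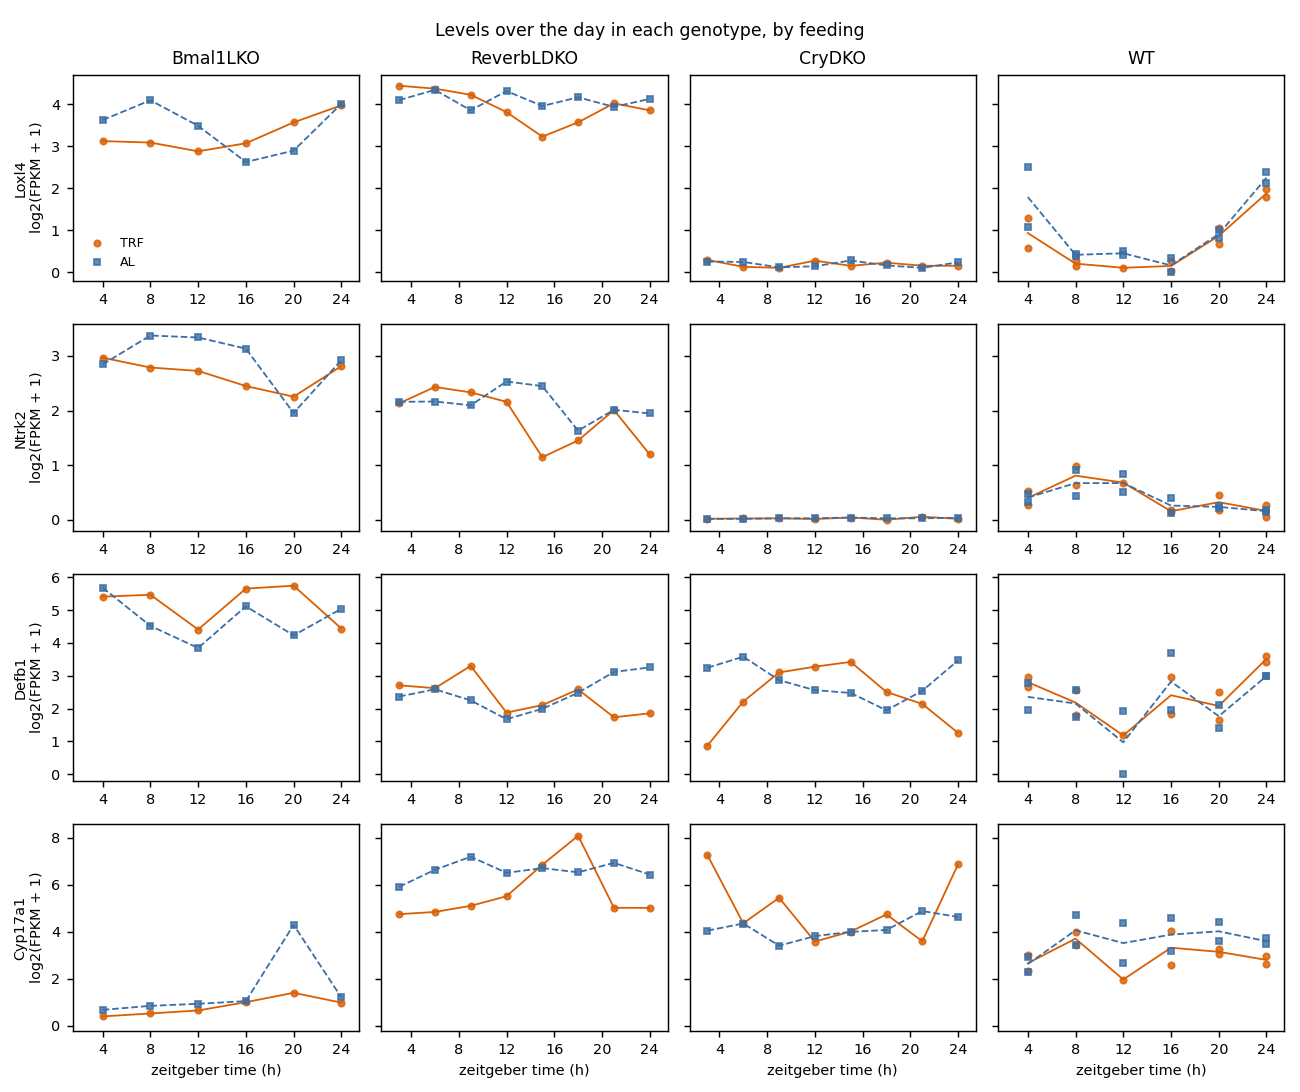
Level as log2(FPKM + 1) against zeitgeber time in hours for Loxl4, Ntrk2, Defb1 and Cyp17a1 (rows) in each genotype (columns). Points are libraries (TRF orange circles, AL blue squares), and lines join the means per time (TRF solid, AL dashed). WT Loxl4 is highest at ZT24 and ZT4, Cyp17a1 in Bmal1LKO AL has its single high library at ZT20, and CryDKO TRF has high Cyp17a1 at ZT3 and ZT24.

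For feeding, Loxl4 was the 1 gene of 6 called in WT, where 64.1% of all genes were called (28.6% higher and 35.4% lower under TRF). It ranged from 0.0244 to 2.94 FPKM with a median of 0.489 in WT TRF libraries, and from 0 to 4.72 with a median of 0.587 in WT AL libraries. The mean was lower under TRF at 6 of 6 times, though the groups overlap. The fitted level fell by 0.33 ± 0.13 on the log2 scale (limma, adjusted p = 0.0207). The direction turned after correction for GC content and exon length, where Loxl4 was 0.55 higher under TRF (adjusted p = 0.00110). The slope of expression on GC content had a median of -0.56 log2 per 10 percentage points in WT TRF libraries and 0.34 in WT AL libraries, and Loxl4 has a GC content of 58%. The part of GC content in the difference was not tested beyond this correction. The call was also lost without the pancreas-marked libraries (adjusted p = 0.0678), with only the WT groups in the fit (0.0958), without time terms (0.320) and on leaving out WT AL ZT4 replicate 1, ZT12 replicate 1 or ZT24 replicate 2, or WT TRF ZT4 replicate 2 (0.0504 to 0.0663).

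No gene of the 6 was called for feeding in a mutant. The shares of all genes called there were 0.0402% in Bmal1LKO, 3.32% in ReverbLDKO (1.08% higher and 2.24% lower) and 0.0201% in CryDKO. In ReverbLDKO, Cyp17a1 ranged from 26.0 to 273 FPKM with a median of 32.6 in TRF libraries, and from 59.6 to 146 with a median of 95.5 in AL libraries. It was lower under TRF at 6 of 8 times, with a difference of -0.96 ± 0.38 (95% interval -1.70 to -0.22) that did not pass (adjusted p = 0.155) but did with only these groups in the fit (adjusted p = 0.0253). In CryDKO, Cyp17a1 ranged from 11 to 153 FPKM with a median of 22.7 under TRF, and from 9.65 to 28.7 with a median of 15.8 under AL, a difference of 0.83 ± 0.38 (adjusted p = 0.833). In Bmal1LKO it was lower under TRF at 6 of 6 times, at -0.67 ± 0.44 (adjusted p = 0.556), and in WT at 5 of 6 times, at -0.58 ± 0.32 (adjusted p = 0.103). The Bmal1LKO value includes the AL library at ZT20, with 18.7 FPKM. On leaving out single libraries it ran from -1.04 to -0.16.

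These feeding differences of Cyp17a1 differed between the 4 genotypes by the interaction test (F = 4.50, limma, adjusted p = 0.0191), as did those of 47.2% of all genes. The call was lost without the CryDKO TRF library at ZT3 (adjusted p = 0.0531) or at ZT24 (0.0514), and without the pancreas-marked libraries (0.115). The acute phase gene Saa1, whose near-identical copies can share reads, was at 41910 FPKM in the CryDKO TRF library at ZT3, 3147 at ZT9 and 607.6 at ZT24, and between 46.8 and 179 in the other 5 libraries of that group. In ReverbLDKO TRF it was at 9196 FPKM at ZT15 and 16120 at ZT18, the 2 libraries of that group with the highest Cyp17a1. Lcn2, an acute phase lipocalin, was at 3292 FPKM in CryDKO TRF at ZT3. Their part in the Cyp17a1 differences, and in the low Defb1 of CryDKO TRF at ZT3, was not tested. The other 5 genes did not pass, with adjusted p from 0.147 to 0.512. In ReverbLDKO the differences of Obp2a (-0.75 ± 0.34), Sult1e1 (-0.92 ± 0.46) and Ntrk2 (-0.27 ± 0.12) also lay below 0, with adjusted p from 0.217 to 0.303. Exact permutations within times, run for the 24 pairs of a gene and a genotype, gave no call after adjustment over them. With 1 library per time, their p could not fall below 0.03125 in Bmal1LKO or 0.0078 in ReverbLDKO and CryDKO. A lone gene could thus not pass there after adjustment, and nothing is read from this outcome in the mutants.

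**Figure D3:**
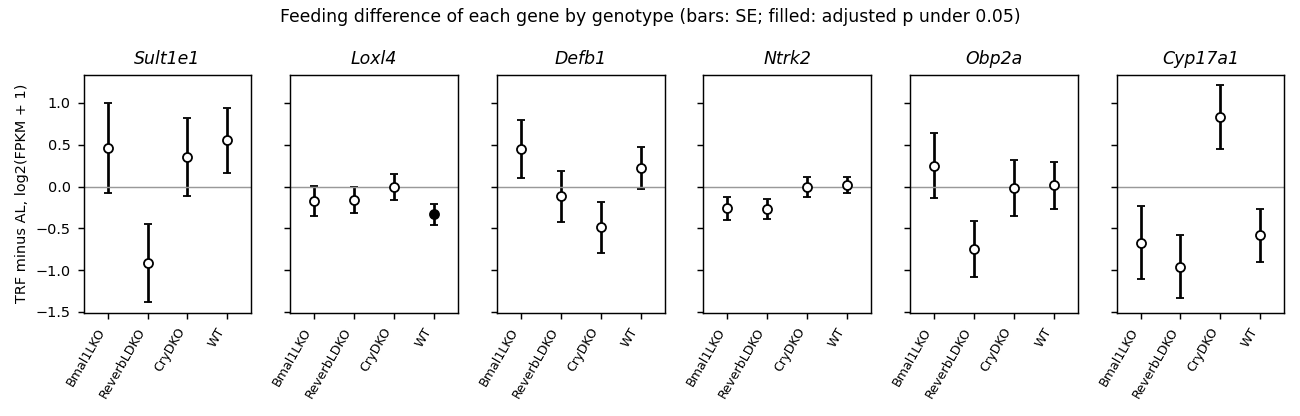
Fitted TRF minus AL difference of each gene on the log2(FPKM + 1) scale by genotype, with SE bars, and filled points where the adjusted p was under 0.05. Of the 24 points, the -0.33 of Loxl4 in WT alone is filled, and Cyp17a1 is at 0.83 in CryDKO and below 0 in the other 3 genotypes.

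Covariation among livers of a genotype was examined over 60 pairs of genes and genotypes. With the feeding mean removed, none passed after adjustment. With time of day removed as well, Sult1e1 and Ntrk2 in Bmal1LKO had r = 0.96 (permutation test, adjusted p = 0.0036), against -0.12 before, and Sult1e1 and Obp2a in WT had r = 0.60 (adjusted p = 0.0312), against 0.57 before. Removing time fits a mean, a cosine and a sine in each feeding group, which has 6 libraries in Bmal1LKO. The permutations take no account of these fitted terms, so the p-values with time removed can be too small. Loxl4 and Cyp17a1 in ReverbLDKO had Pearson r = -0.74 (permutation p = 0.00781, adjusted 0.156) and Spearman rho = -0.75 (permutation p = 0.00131, adjusted 0.0786) over 16 libraries, with r = -0.68 without the 2 farthest libraries. Ntrk2 and Cyp17a1 in Bmal1LKO had r = -0.88 (permutation p = 0.00601, adjusted 0.156) and rho = -0.69 (permutation p = 0.0102, adjusted 0.204) over 12 libraries, and the relation rested on the ends, with r = -0.44 without 2. Sult1e1 and Defb1, alike in their genotype pattern, had r = -0.06 in Bmal1LKO and r = -0.59 in CryDKO (permutation test, adjusted p = 0.205). Without the 2 farthest libraries the CryDKO value was -0.76 (adjusted p = 0.0408).

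Over the 8 group mean levels, the genes most like each of the 6 are given by Pearson r as a description. All share the same libraries. Sult1e1 was nearest to Defb1 (r = 0.98), Stom (0.96) and Slc34a2 (0.95). Slc34a2, a phosphate transporter, had a median of 4.92 FPKM in Bmal1LKO and 0.10 in WT. Cyp17a1 was nearest to Klb (0.98), the FGF co-receptor beta-klotho, Rgs16 (0.98), a regulator of G-protein signalling, and Nr1d1 (0.97). Rgs16 had medians of 1.60 FPKM in Bmal1LKO, 42.8 in ReverbLDKO, 20.97 in CryDKO and 12.3 in WT. Loxl4 was nearest to Lgals9, Gas7 and Cyp2u1 (0.99, 0.99 and 0.98), and Defb1, besides Sult1e1, to Lmo2 (0.99) and Hebp2 (0.97). Ntrk2 was nearest to Cyp2c55, Tmem218 and Npas2 (0.98, 0.98 and 0.97), and Npas2, a partner of BMAL1, had medians of 4.28 FPKM in Bmal1LKO, 3.67 in ReverbLDKO, 0 in CryDKO and 0.41 in WT. Obp2a was nearest to Nfil3 (0.98), a D-box repressor, Aqp4 (0.97), a water channel, and Ppp2r1b (0.96).

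Genes related by function were counted in lists that leave the 6 out, against all genes tested in the same contrast. Against WT, 27.4% of all genes were called in Bmal1LKO (19.7% higher, 7.66% lower), 57.8% in ReverbLDKO (30.1% and 27.7%) and 65.4% in CryDKO (34.4% and 31.0%). Of 6 tested genes of the list of lysyl oxidases and collagen crosslinking, 4 rose in Bmal1LKO and 6 in ReverbLDKO, and 1 in CryDKO, with none lower. Those tested include Plod1, Plod3, Col3a1, Col4a1 and Col4a2, which are not lysyl oxidases. The counts therefore say little about the relatives of Loxl4. The list's median differences were 0.44, 0.59 and 0.08 on the log2 scale, where the medians of all genes were 0.07, 0.01 and 0.02. Col4a2, a basement membrane collagen, rose by 0.54 ± 0.13 in Bmal1LKO (adjusted p = 0.00155) and by 0.89 ± 0.12 in ReverbLDKO (adjusted p = 5.13e-08). After GC and length correction 2, 5 and 1 rose, with 2 lower in CryDKO. Stellate and fibroblast markers, which share Col1a1 and Col3a1 with the full list, had median sums of 188 FPKM in Bmal1LKO, 150 in ReverbLDKO and 144 in CryDKO, against 171 in WT, and their part in the result was not tested.

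Of 9 genes of sulfation, 1 rose and 1 fell in Bmal1LKO, 3 and 2 in ReverbLDKO, and 3 and 2 in CryDKO, against 3 and 1, 4 and 1, and 4 and 2 with libraries scaled to the same sum. Sult1a1, a phenol sulfotransferase, fell by 1.28 ± 0.09 in Bmal1LKO (adjusted p = 3.89e-16) and by 0.84 ± 0.08 in ReverbLDKO (adjusted p = 2.05e-11). Of 18 genes of steroid synthesis and inactivation, 2 rose and 8 fell in Bmal1LKO, 3 and 7 in ReverbLDKO, and 4 and 6 in CryDKO, and with libraries scaled to the same sum the counts were 5 and 5, 4 and 5, and 6 and 5. Por, the electron donor of microsomal P450 enzymes such as CYP17A1, fell by 1.21 ± 0.19 in Bmal1LKO (adjusted p = 1.88e-06) and was 1.54 ± 0.17 higher in CryDKO (adjusted p = 2.18e-10). Of 8 lipocalins, 2 fell in Bmal1LKO, 4 in ReverbLDKO and 6 in CryDKO, and none rose. After GC and length correction 3, 2 and 5 fell, with 1 higher in Bmal1LKO and in CryDKO. Of 6 antimicrobial peptide genes, 1 rose in each mutant, and 1 fell in Bmal1LKO, 3 in ReverbLDKO and 5 in CryDKO. Lcn2 is in this list and among the lipocalins, so its CryDKO difference of -1.34 ± 0.48 is counted in both. Its CryDKO mean was 226.5 FPKM, against 39.1 in WT, with 3292 in the TRF library at ZT3. Of 6 genes of the neurotrophin list, 0 rose and 1 fell in Bmal1LKO, 1 and 1 in ReverbLDKO, and 3 and 1 in CryDKO, against 2 and 0, 5 and 1, and 4 and 1 with libraries scaled to the same sum.

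Of 17 genes known in liver as repressed by REV-ERB, 6 rose and 1 fell in Bmal1LKO, 10 and 1 in ReverbLDKO, and 3 and 8 in CryDKO, with median differences of 0.08, 0.86 and -0.19. With libraries scaled to the same sum the counts were 6 and 0, 13 and 1, and 3 and 3, with a CryDKO median of -0.07. Lpl, lipoprotein lipase, rose by 3.17 ± 0.12 in Bmal1LKO (adjusted p = 1.47e-25) and by 2.29 ± 0.11 in ReverbLDKO (adjusted p = 1.74e-21), and Npas2 by 1.80 ± 0.10 and 1.67 ± 0.09. Of 18 core clock genes, 6 rose and 5 fell in Bmal1LKO, 14 and 1 in ReverbLDKO, and 13 and 3 in CryDKO. These counts include the genes labelled as deleted, Arntl, Nr1d1, Nr1d2, Cry1 and Cry2. Nr1d1 was 2.72 ± 0.14 higher in ReverbLDKO. The REV-ERB list likewise holds Arntl and Cry1. Female-biased liver genes rose in 1 of 5 tested in Bmal1LKO, 3 in ReverbLDKO and 4 in CryDKO, with 1 lower in ReverbLDKO. These counts average both feedings. Within ReverbLDKO, 4 of 5 were called lower under TRF, against 2.24% of all genes. Cyp2a4 there had a mean of 0.53 FPKM under TRF and 94.1 under AL, against 0.87 in WT. Cyp2b13 and Cyp2c69 had WT means of 0.62 and 0.54 FPKM. These means are under the 1 FPKM asked of a gene, which Cyp2a4, Cyp2b13 and Cyp2c69 reached through mutant groups where they are high. The filter thus partly fixes the counts of female-biased genes, and nothing is read from them. Of 15 male-biased genes, 4 rose and 2 fell in Bmal1LKO, 0 and 8 in ReverbLDKO, and 1 and 8 in CryDKO, against 7 and 1, 2 and 7, and 2 and 7 with libraries scaled to the same sum.

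Markers of other cell types were compared between genotypes, since a change in cell makeup and a change of RNA per cell cannot be told apart in whole liver. The sum of 7 hepatocyte markers had a median of 33550 FPKM in Bmal1LKO, 47950 in ReverbLDKO and 60980 in CryDKO, against 55460 in WT, and its Bmal1LKO range ended below the lowest WT library. The sum of 5 bile duct markers was 53.0 to 346 FPKM in Bmal1LKO with a median of 102, against 23.9 to 180 in WT with a median of 53.6. Of these 5, only the epithelial keratin Krt19 was looked at singly, with medians of 0.745 in Bmal1LKO and 0.743 in WT. It does not stand for the sum. The part of bile duct cells in the Defb1 and Sult1e1 levels was not tested. The adrenal cortex markers Cyp11a1 and Cyp11b1 had medians of 0 in all 4 genotypes. The summed adrenal list had medians of 1.38 in Bmal1LKO, 0.87 in ReverbLDKO and 0.62 in CryDKO, against 1.11 in WT. The tissue or cells that give the Cyp17a1 reads were not tested, and these markers do not show them. Without the 10 pancreas-marked libraries, the level difference from WT was 5.10 for Sult1e1 in Bmal1LKO and 2.80 for Cyp17a1 in ReverbLDKO. Over the scalings, the smaller pseudocount and voom, these differences ran from 4.75 to 5.74 and from 2.82 to 3.04.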

How the data were processed

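Liver polyA RNA was sequenced from stranded TruSeq libraries, per the labels' protocols. The authors deposited FPKM values per gene in 1 table of 67 libraries. STAR, featureCounts, DESeq2 and GRCm38 appear in the submitters' processing notes, and versions and strand setting are not given in the sources used here. Whole reads were recovered from the steps of low FPKM values: 84.1 to 88.1% of values of up to 20 reads lay within 0.1 reads of a whole number, and depth was 9.14 to 36.09 M reads per library. Read counts and depths given here are recovered, and no file of counts was used. With the annotated exon length, only a share of 0.23 of low Ntrk2 values and 0.18 of low Cyp17a1 values were whole. Their lengths were multiplied by 0.716 and 0.782, the factors that made low values whole, so their read counts rest on a fitted length.

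The 9955 genes whose mean FPKM reached 1, all 6 genes included, were fitted as log2(FPKM + 1) with limma 3.58.1 (R 4.3.3). One model held the 8 groups and, in each, a cosine and sine of ZT with a period of 24 h. P-values were adjusted by Benjamini-Hochberg over all genes tested, with calls at an adjusted p under 0.05. A fold change on this scale understates the change of low genes. Exact permutations within ZT, two-sided, and 100000 permutations for correlations were run in Python 3.11.15. The limma step was tested on simulated data. Alternatives changed the pseudocount, filter, scaling, GC and length correction, tool (voom on recovered reads), library weights, libraries and model terms.

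The 6 genes and all lists were chosen with earlier results of these data known. All 6 are named; from related lists, up to 3 called genes per list and contrast with the greatest difference could be named, and likeness names the 3 named genes with the highest r. Nearly identical gene copies can share reads, which the counting may split.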

Additional observations from a re-analysis of the deposited data

Results flagged for a closer look

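In 36 groups of 4 to 10 libraries, the highest or lowest library was compared with its neighbours, and in 4 its gap was large relative to the range of the group. For normally distributed values, chance gives about 1 in 20 such groups, and whether these FPKM values are so distributed was not tested. Cyp17a1 was at 18.68 FPKM in Bmal1LKO AL at ZT20, where the next library of that group had 1.31. Cyp17a1 was at 272.6 FPKM in ReverbLDKO TRF at ZT18, where the next had 115. Sult1e1 was at 42.53 FPKM in CryDKO AL at ZT18, where the next had 12.9. Obp2a was at 0.5618 FPKM in CryDKO TRF at ZT18, a value of 4 recovered reads, where the next had 0.0807.

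The difference in the feeding effect on Cyp17a1 between the 4 genotypes had an adjusted p of 0.01909 in limma's interaction test. The TRF minus AL difference was 0.83 in CryDKO, higher at 6 of 8 times, and -0.96 in ReverbLDKO, -0.67 in Bmal1LKO and -0.58 in WT. The Bmal1LKO value includes the flagged AL library at ZT20 and ran from -1.04 to -0.16 on leaving out single libraries.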

How the results depend on the processing

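Each result was recomputed under up to 13 alternatives, beside leaving out each library. Of 2058 recomputed values, 28 lost a call, 42 gained one, 1 called value turned direction and 40 changed sign while not called. The value that turned was Loxl4 for feeding in WT, at 0.549 after GC and length correction. The rhythm of Loxl4 in WT kept its call under every alternative and every library left out.

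The number of the 6 genes called moved as follows, and where no value or construction shows it the cause was not tested. For feeding in ReverbLDKO (0) it was 1 with libraries scaled to the same sum, 3 with library weights and 1 with only the groups compared. For feeding in WT (1) it was 2 with weights and 0 with only those groups, without time terms or without pancreas-marked libraries. For feeding by genotype (1) it was 2 with GC correction, 4 with weights, and 0 without time terms or pancreas-marked libraries. For rhythm, weights gave 1 in Bmal1LKO AL, 2 in CryDKO AL and 1 in ReverbLDKO AL (each 0). CryDKO TRF (1) had 0 with pseudocount 0.1, voom or its own group alone, and 2 with GC correction or weights. ReverbLDKO TRF (1) had 0 with pseudocount 0.1 or voom, and 2 with weights. WT AL (1) had 2 with pseudocount 0.1, GC correction, voom or without pancreas-marked libraries, and 3 with weights, and WT TRF (1) had 2 under these, weights included, and with the same sum. For covariation (0) it was 1 without the 2 farthest libraries and 2 with time of day removed. Leaving out single libraries gave 0 to 2 for feeding in WT, 0 to 1 for feeding by genotype, 0 to 1 for rhythm in CryDKO AL, 0 to 3 in CryDKO TRF, 0 to 1 in ReverbLDKO TRF and 1 to 2 in WT under either feeding.

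Replicate numbers in WT do not pair animals by the labels. Deviations of same-numbered libraries correlated above 0.1 in 9 of 11 pairs, from -0.15 to 0.86, and 8 of 11 matched their own number best. With a replicate block for WT, 2 genes were called for rhythm in CryDKO TRF. Genes called over the whole table for feeding were 4 in Bmal1LKO, 2 in CryDKO and 331 in ReverbLDKO, against 940, 473 and 4134 with library weights, and 6377 in WT, against 3242 after GC correction. Scaling to the same sum moved the median of all genes by up to 0.21 and the share of genotype calls that were higher to 93.8% in Bmal1LKO (72% otherwise), 81% in ReverbLDKO (52.1%) and 69.4% in CryDKO (52.7%), and in Bmal1LKO median-of-ratios and GC correction gave 54% and 50%. For feeding in ReverbLDKO that share was 32.6%, against 46.7%, 4.92% and 47.9% with median-of-ratios, the same sum and GC correction. At 1 library per time in the mutants, and with 13 and 70 reads in all for Obp2a and Ntrk2 in CryDKO, small differences were not detectable at this depth.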

Other observations

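The acute phase gene Saa1, which the liver makes in inflammation, was set beside the 6 genes within each genotype after its values were seen, in 24 relations. The pairing with Cyp17a1 was chosen after seeing both in these data. The p-values here are therefore descriptive, and adjustment over the 24 does not correct for that choice. Reads of the near-identical Saa genes can be split by the counting, so its level is uncertain. In CryDKO, Saa1 and Sult1e1 had Pearson r = 0.73 (permutation p = 0.0006, adjusted 0.0144) and Spearman rho = 0.81 (permutation p = 6e-05, adjusted 0.00144) over 16 libraries, with r = 0.79 without the 2 farthest. Saa1 and Cyp17a1 in CryDKO had r = 0.81 (permutation p = 0.00193, adjusted 0.0232) and rho = 0.80 (permutation p = 0.00191, adjusted 0.0229), with r = 0.68 without the 2 farthest. In ReverbLDKO, Saa1 and Cyp17a1 had r = 0.77 (permutation p = 0.0262, adjusted 0.0897) and rho = 0.44 (permutation p = 0.113, adjusted 0.249), and the relation rested on 2 libraries, with r = 0.24 without them. Saa1 and Loxl4 in Bmal1LKO had r = 0.75 (permutation p = 0.00990, adjusted 0.0666) and rho = 0.76 (permutation p = 0.0114, adjusted 0.0427) over 12 libraries, with r = 0.94 without the 2 farthest. Another 4 relations had an adjusted rank p of 0.0427, while their Pearson r did not pass. In ReverbLDKO, Saa1 and Ntrk2 had r = -0.70 (permutation p = 0.0159, adjusted 0.0666) and rho = -0.69 (permutation p = 0.00766), with r = -0.57 without the 2 farthest. In WT, over 23 libraries, Saa1 had r = 0.50 with Sult1e1 (permutation p = 0.0136, adjusted 0.0666), with rho = 0.53 (permutation p = 0.00731) and r = 0.42 without the 2 farthest. Its relation with Defb1 in WT had r = 0.43 (permutation p = 0.0552, adjusted 0.131) and rho = 0.54 (permutation p = 0.0102), with r = 0.35 without the 2 farthest. That with Obp2a in WT had r = 0.56 (permutation p = 0.0167, adjusted 0.0666) and rho = 0.57 (permutation p = 0.0125), with r = 0.53 without the 2 farthest.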
